A study of Mus musculus with 5 samples.

Results

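The 32 genes described here encode the enzymes and transporters that carry glucose from the cell surface to lactate: 4 glucose transporters, 3 hexokinases, the isomerase *Gpi1*, 3 phosphofructokinase subunits, 4 bifunctional regulators of phosphofructokinase, 2 aldolases, 4 genes of the triose steps, 3 enolases, the pyruvate kinase *Pkm*, 2 lactate dehydrogenases, 2 monocarboxylate transporters, 2 pyruvate dehydrogenase kinases and *Hif1a*. They were chosen by name, and each was found among the 47729 genes of a table of RNA-seq read counts. The libraries came from dermal group 2 innate lymphoid cells (dILC2s), which were sorted from untreated mouse skin as CD45+CD90hi cells negative for CD2 and CD3. WT C57BL/6 mice gave 3 pools, numbered 5, 6 and 13, and C57BL/6 mice with the germline Rag1-/- deletion gave 2 pools, numbered 2 and 7. All donors were female and 8 to 13 weeks old. The labels count 30 WT and 16 Rag1-/- mice, whereas the methods give 10 mice to each WT pool and 9 to each Rag1-/- pool. Rag1-/- mice lack mature T and B cells in every tissue, so the cells carried the deletion themselves and also came from a host without adaptive lymphocytes, and these effects cannot be told apart. The labels name the cell type of the Rag1-/- libraries as type 3 and that of the WT libraries as type 2 innate lymphoid cells, although the sort was the same. Each library is a pool of animals, so p-values measure the spread between pools.

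Glycolysis splits glucose into pyruvate in the cytosol and yields ATP without oxygen. Hexokinase traps glucose in the cell, phosphofructokinase sets the pace of the pathway, and lactate dehydrogenase turns pyruvate into lactate, which leaves the cell with protons through monocarboxylate transporters. The oxygen-sensitive factor HIF-1α, encoded by *Hif1a*, and the growth factor-responsive factor MYC are textbook activators of these genes, and activated lymphocytes are known to draw on glycolysis.

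The promoters of the members that passed the test described below, with that of *Ldha*, are printed because HIF-1 and MYC are known to read short core motifs near the start of glycolytic genes. The motifs searched were the hypoxia-response cores ACGTG and GCGTG and the E-box CACGTG, each on both strands, in windows from 250 bases before to 50 bases after each RefSeq transcription start (GRCm38.p6). Each sequence runs 5′ to 3′ on the strand of its gene, and capitals mark a core on either strand. A CACGTG holds ACGTG on both strands and was counted for each. Of the 32 genes, 30 had an entry and *Slc2a3* and *Slc2a4* did not. *Slc2a6* had 1 window, at chr2:27027949-27028248 on the minus strand, with 4 core matches. *Slc16a3* had 1 window, at chr11:120948817-120949116 on the plus strand, with 2. *Gapdh* had 1 window, at chr6:125165724-125166023 on the minus strand, with 3. Of 3 windows of *Pfkfb2*, that with the most matches, 4, lay at chr1:130715772-130716071 on the minus strand. Of 2 windows of *Ldha*, that with the most matches, 7, lay at chr7:46845554-46845853 on the plus strand.
Slc2a6: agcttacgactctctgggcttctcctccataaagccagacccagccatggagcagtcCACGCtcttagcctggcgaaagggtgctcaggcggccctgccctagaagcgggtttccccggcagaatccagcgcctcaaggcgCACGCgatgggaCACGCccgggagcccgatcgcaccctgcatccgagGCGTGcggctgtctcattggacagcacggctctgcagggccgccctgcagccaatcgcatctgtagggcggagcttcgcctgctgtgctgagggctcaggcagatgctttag
Slc16a3: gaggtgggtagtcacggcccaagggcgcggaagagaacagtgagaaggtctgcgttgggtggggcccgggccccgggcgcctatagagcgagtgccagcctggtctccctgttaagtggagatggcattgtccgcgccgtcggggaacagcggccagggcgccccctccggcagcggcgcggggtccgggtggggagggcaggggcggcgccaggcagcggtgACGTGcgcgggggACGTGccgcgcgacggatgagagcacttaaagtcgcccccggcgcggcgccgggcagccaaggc
Gapdh: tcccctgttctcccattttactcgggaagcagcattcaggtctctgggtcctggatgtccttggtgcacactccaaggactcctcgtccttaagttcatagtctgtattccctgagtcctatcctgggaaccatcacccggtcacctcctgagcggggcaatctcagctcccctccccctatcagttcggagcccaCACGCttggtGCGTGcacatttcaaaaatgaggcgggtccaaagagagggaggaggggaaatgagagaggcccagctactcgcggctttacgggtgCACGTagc
Pfkfb2: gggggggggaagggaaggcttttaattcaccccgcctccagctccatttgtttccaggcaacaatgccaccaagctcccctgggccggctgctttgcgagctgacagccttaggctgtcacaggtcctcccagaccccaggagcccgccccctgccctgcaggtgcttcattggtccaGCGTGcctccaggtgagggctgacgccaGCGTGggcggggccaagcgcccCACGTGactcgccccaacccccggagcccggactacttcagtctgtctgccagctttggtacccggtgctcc
Ldha: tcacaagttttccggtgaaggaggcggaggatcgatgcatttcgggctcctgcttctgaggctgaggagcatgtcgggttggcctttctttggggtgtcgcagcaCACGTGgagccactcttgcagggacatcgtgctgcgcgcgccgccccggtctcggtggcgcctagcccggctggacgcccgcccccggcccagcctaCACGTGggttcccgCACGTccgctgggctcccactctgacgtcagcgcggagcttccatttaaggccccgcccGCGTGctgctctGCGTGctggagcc

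At least 1 core was present in 27 of the 30 member genes, or 90.0%, against 46.7% of all genes in the promoter table, counting any window of a gene. ACGTG was present in 18 of the 30, or 60.0%, against 21.8% of all genes, and GCGTG in 20, or 66.7%, against 35.2%. The E-box stood in 6 of the 30 members, against 8.09% of all genes. The 3 genes without a core in any window were *Gpi1*, *Tpi1* and *Eno2*. The most matches were those of *Ldha*, whose window held the E-box at 2 places, and the gene called lower, *Pfkfb2*, held an E-box too. These are letter matches in a window, with no binding data behind them, and genes with base compositions like those of the members were not compared separately.

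Total counts were 32939428 to 39477243 in 4 libraries and 8050562 in Rag1-/- pool 2. Levels are given as CPM, the count divided by the library total and scaled to 1000000, so that 3 reads stood for 0.373 CPM in that library and for at most 0.0911 CPM in the others. *Rag1* itself had 4, 0 and 5 reads in the WT pools and 5 and 48 reads in the Rag1-/- pools. The part of the gene removed by the allele was not given in the sources used here, so these reads do not check the genotype. Markers of some other cells moved with genotype. Those of fibroblasts, a list of 7 genes, overlapped, with sums of 9344, 7398 and 13275 CPM in WT and 7990 and 7883 CPM in Rag1-/- libraries. The summed level of 27 keratinocyte genes was 54118, 42431 and 36940 CPM in WT pools 5, 6 and 13. In Rag1-/- pools 2 and 7 it was 8919 and 21832 CPM. Of the 27, 9 were called lower, against 2.16% of all genes tested. Their defining member *Krt5* was at 5019 to 6091 CPM in WT and 1632 and 2731 CPM in Rag1-/- libraries. *Krt5* itself was not called (edgeR adjusted p = 0.0666). The summed level of 34 pan-leukocyte genes was 1234, 2916 and 2888 CPM in the WT pools and 9694 and 8409 CPM in the Rag1-/- pools. Of the 33 tested, 25 were called higher, against 3.57% of all genes tested. The ILC2 list was higher in both Rag1-/- pools too, at 7487 and 5384 CPM against 1471 to 2962 CPM. Of its 17 genes, 6 were called higher, against 3.57% of all genes tested. *Gata3*, the ILC2 regulator, was at 199 to 319 CPM in WT and 558 and 369 CPM in Rag1-/- libraries. *Gata3* itself was not called (edgeR adjusted p = 0.0998). The summed level of the 9 T cell markers was also higher, at 43.7, 62.8 and 61.0 CPM in WT and 215 and 168 CPM in Rag1-/- libraries. Of the 8 tested, 3 were called higher, against the same 3.57% of all genes. Their defining member *Cd3e* overlapped, at 5.46 to 7.98 CPM in WT and 9.44 and 7.42 CPM in Rag1-/- libraries. In such bulk libraries fewer cells of a type and less RNA per cell cannot be told apart, and the part of the keratinocyte, leukocyte and T cell lists in the results on the members was not tested.

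In Rag1-/- libraries 3 of the 32 members were higher and 1 was lower. Those higher were *Slc2a6*, a hexose transporter of internal membranes, *Slc16a3*, the lactate exporter MCT4, and *Gapdh*, the dehydrogenase at the middle of the pathway. The member that was lower was *Pfkfb2*, which makes and degrades fructose-2,6-bisphosphate, the activator of phosphofructokinase. A gene was called when its adjusted p (edgeR quasi-likelihood test, Benjamini-Hochberg over the 19011 genes tested) was under 0.05 and its log2 fold change was above 1 in size. All 32 members entered the test. The called shares, 9.38% higher and 3.13% lower, stood beside 3.57% and 2.16% of all genes tested, respectively. By adjusted p alone 4 members were higher and 1 was lower, against 3.84% and 2.43% of all genes. With DESeq2, *Ldha* was called besides, which made 4 higher and 1 lower, against 7.29% and 7.65% of the genes it tested. The same 5 genes were called by edgeR without the filter on low counts, against 3.87% and 4.98% of all genes then tested. As 1 gene is 3.13% of the members, the share called lower was near that of all genes. The median log2 fold change was 0.17 over the members and 0.02 over all genes tested, and 20 of the 32 members were positive, against 51.4% of all genes. Both Rag1-/- libraries lay above every WT library for 12 members, or 37.5%, against 21.9% of all genes tested, and below every WT library for 7, or 21.9%, against 24.0%. The groups overlapped for the other 13.

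**Figure D1:**
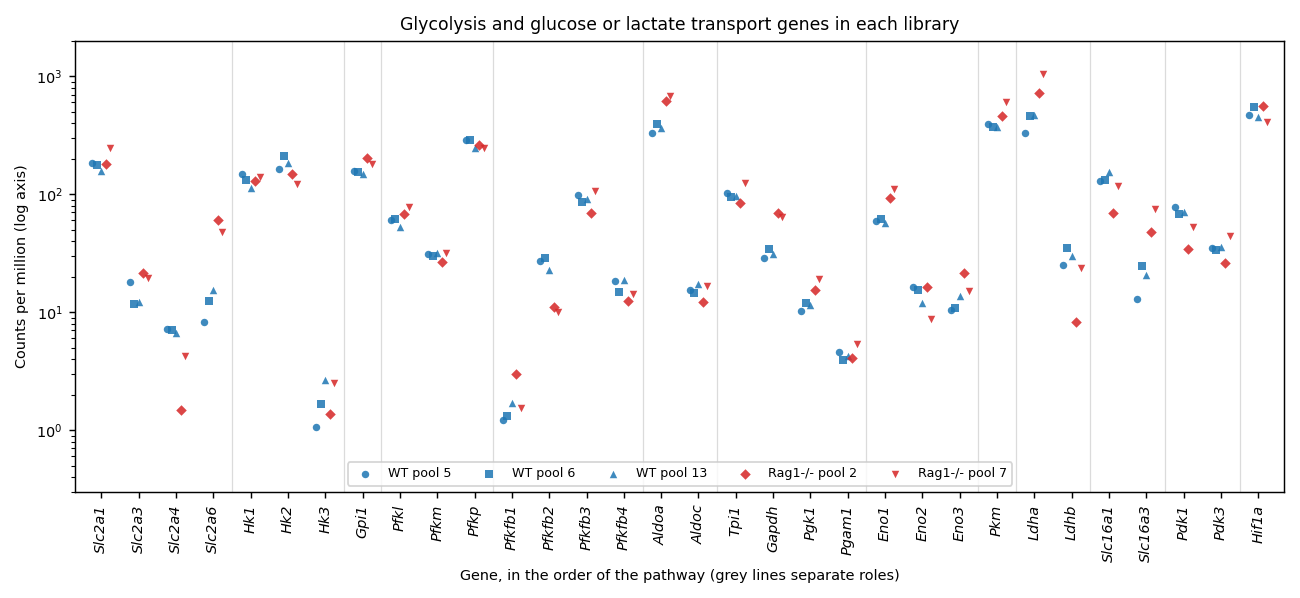
Level of each of the 32 members in each library, in CPM on a log axis, with genes on the horizontal axis in the order of the pathway and grey lines between roles. Blue symbols are the 3 WT pools and red symbols the 2 Rag1-/- pools. The red symbols of *Slc2a6*, *Slc16a3*, *Gapdh* and *Aldoa* lie above all blue ones and those of *Pfkfb2* lie below, whereas the symbols of *Hk1*, *Pfkm* and *Hif1a* are mixed.

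Summed over the 32 genes, the level was 3267, 3525 and 3316 CPM in the WT pools and 4045 and 4672 CPM in the Rag1-/- pools, or 0.337% ± 0.0137 (SD, n = 3) and 0.436% ± 0.0443 (SD, n = 2) of all counts. The sums did not overlap. The difference was unevenly spread along the pathway. Aldolases had 347, 407 and 381 CPM against 624 and 697 CPM. Lactate dehydrogenases had 353, 492 and 504 CPM against 724 and 1075 CPM. The hexokinases at the entry went the other way, with 314, 343 and 300 CPM in WT and 279 and 265 CPM in Rag1-/- libraries, and those groups did not overlap either. Per kilobase of messenger RNA, the highest levels in WT libraries were those of *Aldoa* at 240 CPM per kb, *Ldha* at 238, *Pkm* at 157 and *Hif1a* at 103. In Rag1-/- libraries these were 428, 500, 219 and 102 CPM per kb.

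Among the glucose transporters, *Slc2a6* was called higher, and the plasma membrane transporters were not called. *Slc2a6* (chr2:27021363-27027998, minus strand, GRCm38) was at 8.22, 12.3 and 15.3 CPM in WT pools 5, 6 and 13 and at 60.5 and 47.9 CPM in Rag1-/- pools 2 and 7. The lower Rag1-/- library was far above the highest WT library. The difference was 4.62-fold, a log2 fold change of 2.21 with a standard error (SE) of 0.28 and an edgeR adjusted p of 0.0306. *Slc2a1*, the GLUT1 transporter that supplies most cells with glucose, had the highest level of the 4, at 183, 175 and 158 CPM against 180 and 246 CPM. The groups overlapped, with a log2 fold change of 0.35 (SE 0.22, edgeR adjusted p = 0.369). *Slc2a3*, which encodes the high-affinity neuronal and leukocyte transporter GLUT3, was at 17.99, 11.7 and 12.3 CPM against 21.4 and 19.3 CPM, without overlap but short of the threshold (log2 fold change 0.57, edgeR adjusted p = 0.213). *Slc2a4*, the insulin-responsive GLUT4 of muscle and fat, was at 7.14, 7.04 and 6.68 CPM against 1.49 and 4.26 CPM, of which the 1.49 CPM of pool 2 rested on 12 reads. Its log2 fold change of -1.16 had an SE of 0.46 and did not pass (edgeR adjusted p = 0.168). The summed striated muscle list was at 40.8, 31.9 and 77.4 CPM against 27.0 and 163 CPM, and the adipocyte list was at 84.3, 63.0 and 105 CPM against 58.4 and 108 CPM. Of the defining markers of these cells, *Acta1* of muscle was at 1.86 to 31.0 CPM and *Adipoq* of fat at 0 to 4.04 CPM. The part of such cells in the level of *Slc2a4* was not tested.

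The first enzymes of the pathway, which commit glucose to it, showed small differences, and none of the hexokinases, *Gpi1* or the phosphofructokinase subunits was called. *Hk2*, the inducible hexokinase, was at 165, 211 and 185 CPM in WT and 149 and 122 CPM in Rag1-/- libraries. Every Rag1-/- value was under every WT value, yet the log2 fold change of -0.43 had an SE of 0.21 (edgeR adjusted p = 0.235). *Hk1*, the housekeeping form, was at 113 to 148 CPM in all 5 libraries. *Hk3*, a form known from myeloid cells, was at 1.06 to 2.67 CPM, and the summed myeloid list at 383 to 968 CPM. *Gpi1*, the isomerase, was at 156, 155 and 148 CPM against 202 and 179 CPM, a log2 fold change of 0.35 (SE 0.18, edgeR adjusted p = 0.264). Of the phosphofructokinase subunits, the platelet form *Pfkp* had the highest level, 244 to 289 CPM across all libraries, and the muscle form *Pfkm* was at 26.7 to 31.7 CPM. Neither separated the genotypes. The liver form *Pfkl* was at 60.3, 61.2 and 52.8 CPM in WT and 67.6 and 78.4 CPM in Rag1-/- libraries, which did not overlap (log2 fold change 0.36, SE 0.19, edgeR adjusted p = 0.278).

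The PFKFB enzymes set the level of fructose-2,6-bisphosphate, and of the 4 only *Pfkfb2* was called. *Pfkfb2* (chr1:130689182-130729253, minus strand) was at 27.1, 28.7 and 22.9 CPM in the WT pools and at 11.1 and 10.05 CPM in the Rag1-/- pools. Its log2 fold change was -1.29 (SE 0.22, edgeR adjusted p = 0.0309), to 0.41 of the WT level. The Rag1-/- pools were close to each other, and both were well under the lowest WT pool. Other genes share 19.5% of the exon bases of *Pfkfb2*, mainly *Gm29427*, and the library kit did not mark strand, so a part of its reads is uncertain. *Pfkfb3*, the inducible form with strong kinase activity, was the most abundant at 99.3, 86.2 and 90.6 CPM against 68.8 and 106 CPM, with the WT pools between the Rag1-/- pools. *Pfkfb4* was at 18.5, 14.7 and 18.8 CPM against 12.4 and 14.2 CPM (log2 fold change -0.34, edgeR adjusted p = 0.413). *Pfkfb1*, the liver and muscle form, was at 1.21 to 2.98 CPM.

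From aldolase to pyruvate kinase, where each glucose has been split and ATP is regained, the genes of the main isozymes had positive fold changes, all of them negative when libraries were scaled on pan-leukocyte genes, and *Gapdh* was the 1 called. *Gapdh* (chr6:125161715-125166467, minus strand) was at 28.8, 34.6 and 30.8 CPM in WT and 69.2 and 63.6 CPM in Rag1-/- libraries. Values within each genotype were close, and the difference was 2.16-fold (log2 fold change 1.11, SE 0.18, edgeR adjusted p = 0.0306). *Eno1* (chr4:150236721-150248879, plus strand), the widely expressed enolase, was at 58.9, 61.7 and 57.3 CPM against 92.9 and 111 CPM. It passed the adjusted p (0.0493, edgeR) but not the fold threshold, with a log2 fold change of 0.82 and an SE of 0.19. *Aldoa* (chr7:126795234-126809108, minus strand), the aldolase of muscle and most other cells, was at 332, 392 and 364 CPM against 612 and 681 CPM. All its Rag1-/- values were above all WT values, and its adjusted p of 0.0551 (edgeR; log2 fold change 0.87, SE 0.21) was just over the threshold. *Pgk1*, which makes the first ATP, was at 10.3, 11.9 and 11.6 CPM against 15.3 and 19.2 CPM (log2 fold change 0.65, edgeR adjusted p = 0.14). *Pkm*, the pyruvate kinase of the last step, was at 396, 374 and 373 CPM against 464 and 602 CPM (log2 fold change 0.52, edgeR adjusted p = 0.182). *Tpi1*, *Pgam1*, *Aldoc* and *Eno2* overlapped between genotypes. The muscle enolase *Eno3* was at 10.4, 10.9 and 13.8 CPM against 21.5 and 15.0 CPM and did not overlap (log2 fold change 0.66, edgeR adjusted p = 0.16).

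Several of these genes have processed pseudogenes, and reads that fit more than 1 place may not have been counted. Of the stretches of 50 bases, the read length, along the main messenger RNA, 82.5% were also found in transcripts of other genes for *Gapdh*, 72.2% for *Eno1*, 68.0% for *Pgk1* and 41.5% for *Pgam1*. The share was 34.4% for *Pkm*, 27.0% for *Ldhb*, 25.3% for *Gpi1* and 25.1% for *Pfkfb2*. For *Aldoa* the share was 13.9%, for *Ldha* 17.1%, and for *Slc2a6* and *Slc16a3* 0%. The levels of *Gapdh*, *Eno1*, *Pgk1* and *Pgam1* relative to other genes are therefore uncertain. Those of *Pkm*, *Ldhb*, *Gpi1* and *Pfkfb2* are uncertain to a lesser degree. Their copies held few reads in the table: *Gapdh-ps14* had 63 in all 5 libraries together, or 0.964% of those of *Gapdh*, and *Eno1b* had 28. Reads that fit both a gene and its copy may be missing from both, so these low counts do not show how many were lost. Counting was the same for both genotypes.

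The final steps make lactate and move it across the membrane, and here genes of opposite sign stood side by side. *Ldha* (chr7:46841475-46855627, plus strand), whose subunit is known to favour making lactate, was at 328, 457 and 474 CPM in the WT pools and 716 and 1052 CPM in the Rag1-/- pools. Its groups did not overlap, but pools of the same genotype were far apart and the adjusted p was 0.0621 (edgeR; log2 fold change 1.11, SE 0.28). With DESeq2 it was called, at an adjusted p of 0.00619, and over all alternatives its adjusted p was 0.00619 to 0.177. *Ldhb*, whose subunit is known to favour lactate use, was at 25.2, 35.1 and 29.7 CPM against 8.20 and 23.6 CPM. Both Rag1-/- libraries were under the lowest WT library, pool 7 only slightly (log2 fold change -0.84, SE 0.43, edgeR adjusted p = 0.271). *Slc16a3* (chr11:120948480-120960868, plus strand), encoding the low-affinity exporter MCT4, was at 12.9, 24.6 and 20.6 CPM against 48.2 and 74.8 CPM. The lower Rag1-/- library was still above the highest WT library, and the difference of 3.27-fold passed (log2 fold change 1.71, SE 0.33, edgeR adjusted p = 0.0365). *Slc16a1*, encoding the widely expressed MCT1, was at 128, 132 and 154 CPM against 68.7 and 117 CPM (log2 fold change -0.53, SE 0.27, edgeR adjusted p = 0.272). WT pool 5, which had the lowest pan-leukocyte sum, also had the lowest *Slc2a6*, *Ldha* and *Slc16a3* of the 3 WT pools. It had the lowest *Hk2*, *Ldhb* and *Slc16a1* too, whose fold changes were negative. *Slc2a1* and *Pkm*, with positive fold changes, were highest in that pool. The part of leukocyte content in these levels was not tested.

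The pyruvate dehydrogenase kinases, which keep pyruvate out of mitochondrial oxidation, and *Hif1a* were not called. *Pdk1*, a known HIF-1 target, was at 77.9, 67.9 and 70.7 CPM in WT and 34.7 and 52.3 CPM in Rag1-/- libraries, without overlap (log2 fold change -0.68, SE 0.24, edgeR adjusted p = 0.129). *Pdk3* was at 35.0, 33.6 and 35.7 CPM against 26.0 and 44.6 CPM, so that the Rag1-/- pools lay on either side of the WT pools. *Hif1a* was at 472, 546 and 448 CPM against 557 and 411 CPM, a log2 fold change of 0.01 with an SE of 0.23 (edgeR adjusted p = 0.983). Its messenger RNA level says nothing of the protein, which is known to be controlled mainly by its degradation.

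**Figure D2:**
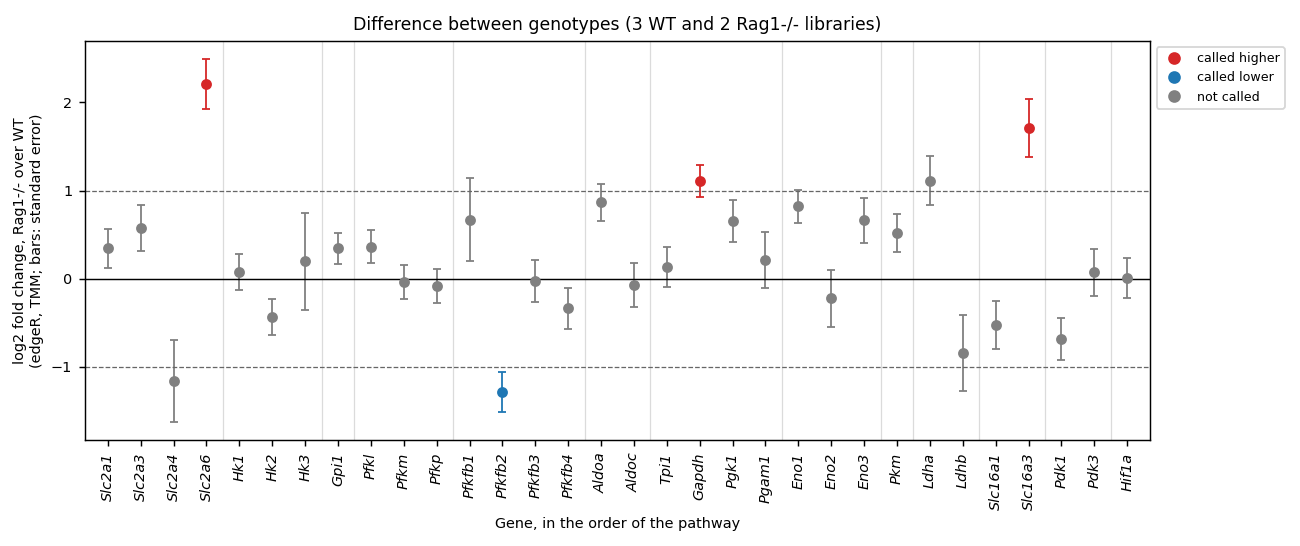
log2 fold change of each member, Rag1-/- over WT, with bars of 1 standard error (edgeR, TMM scaling, 3 WT and 2 Rag1-/- libraries), and dashed lines at the fold threshold on each side. Red points were called higher (*Slc2a6* 2.21, *Slc16a3* 1.71, *Gapdh* 1.11), the blue point lower (*Pfkfb2* -1.29) and grey points were not called. With libraries scaled on pan-leukocyte genes the sign of *Slc16a3* and *Gapdh* turned.

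The share of each isozyme within its family does not depend on how libraries are scaled against each other. The widest gap was in lactate transport: *Slc16a3* made up 9.12%, 15.7% and 11.8% of the counts of *Slc16a1* and *Slc16a3* together in WT pools 5, 6 and 13 and 41.2% and 38.99% in Rag1-/- pools 2 and 7. The means were 12.2% ± 3.31 (SD, n = 3) and 40.1% ± 1.59 (SD, n = 2), 27.9 percentage points apart. With 3 libraries against 2, a two-sided exact permutation test has 10 splits and cannot go below p = 0.2, and each share described here as not overlapping had that p. *Ldhb* made up 7.13%, 7.13% and 5.90% of lactate dehydrogenase counts in WT and 1.13% and 2.19% in Rag1-/- libraries, the rest being *Ldha*. The share of *Slc2a6* among the glucose transporters was 3.80%, 5.98% and 7.97% against 23.0% and 15.1%, and that of *Slc2a4* was 3.30%, 3.41% and 3.48% against 0.566% and 1.35%. *Slc2a1* was the main glucose transporter gene in all 5 libraries, at 82.1% to 85.0% in WT and 68.4% and 77.4% in Rag1-/- libraries.

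Shares of several regulatory and tissue-restricted isozymes did not overlap either. *Pdk1* made up 69.0%, 66.9% and 66.5% of *Pdk1* and *Pdk3* counts in WT and 57.2% and 54.0% in Rag1-/- libraries. *Pfkfb2* made up 18.5%, 21.9% and 17.1% of the PFKFB counts against 11.6% and 7.60%, while *Pfkfb3* made up 65.8% to 68.0% against 72.2% and 80.5%. The share of *Pfkl* was very even in WT, 15.9% to 16.1% of phosphofructokinase counts, and was 19.1% and 22.0% in Rag1-/- libraries, with *Pfkp* at 74.3% to 76.0% against 73.4% and 69.1%. *Aldoc*, the aldolase of brain, was at 3.55% to 4.54% of aldolase counts against 1.95% and 2.40%, and *Eno2*, the neuronal enolase, at 14.4% to 19.2% of enolase counts against 12.5% and 6.48%. Shares of the hexokinases overlapped: *Hk2* made up 52.5%, 61.3% and 61.6% against 53.4% and 46.1% (exact permutation p = 0.4). None of the main isozymes changed place in its family except in the hexokinases, where *Hk1* was ahead of *Hk2* in Rag1-/- pool 7 alone.

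**Figure D3:**
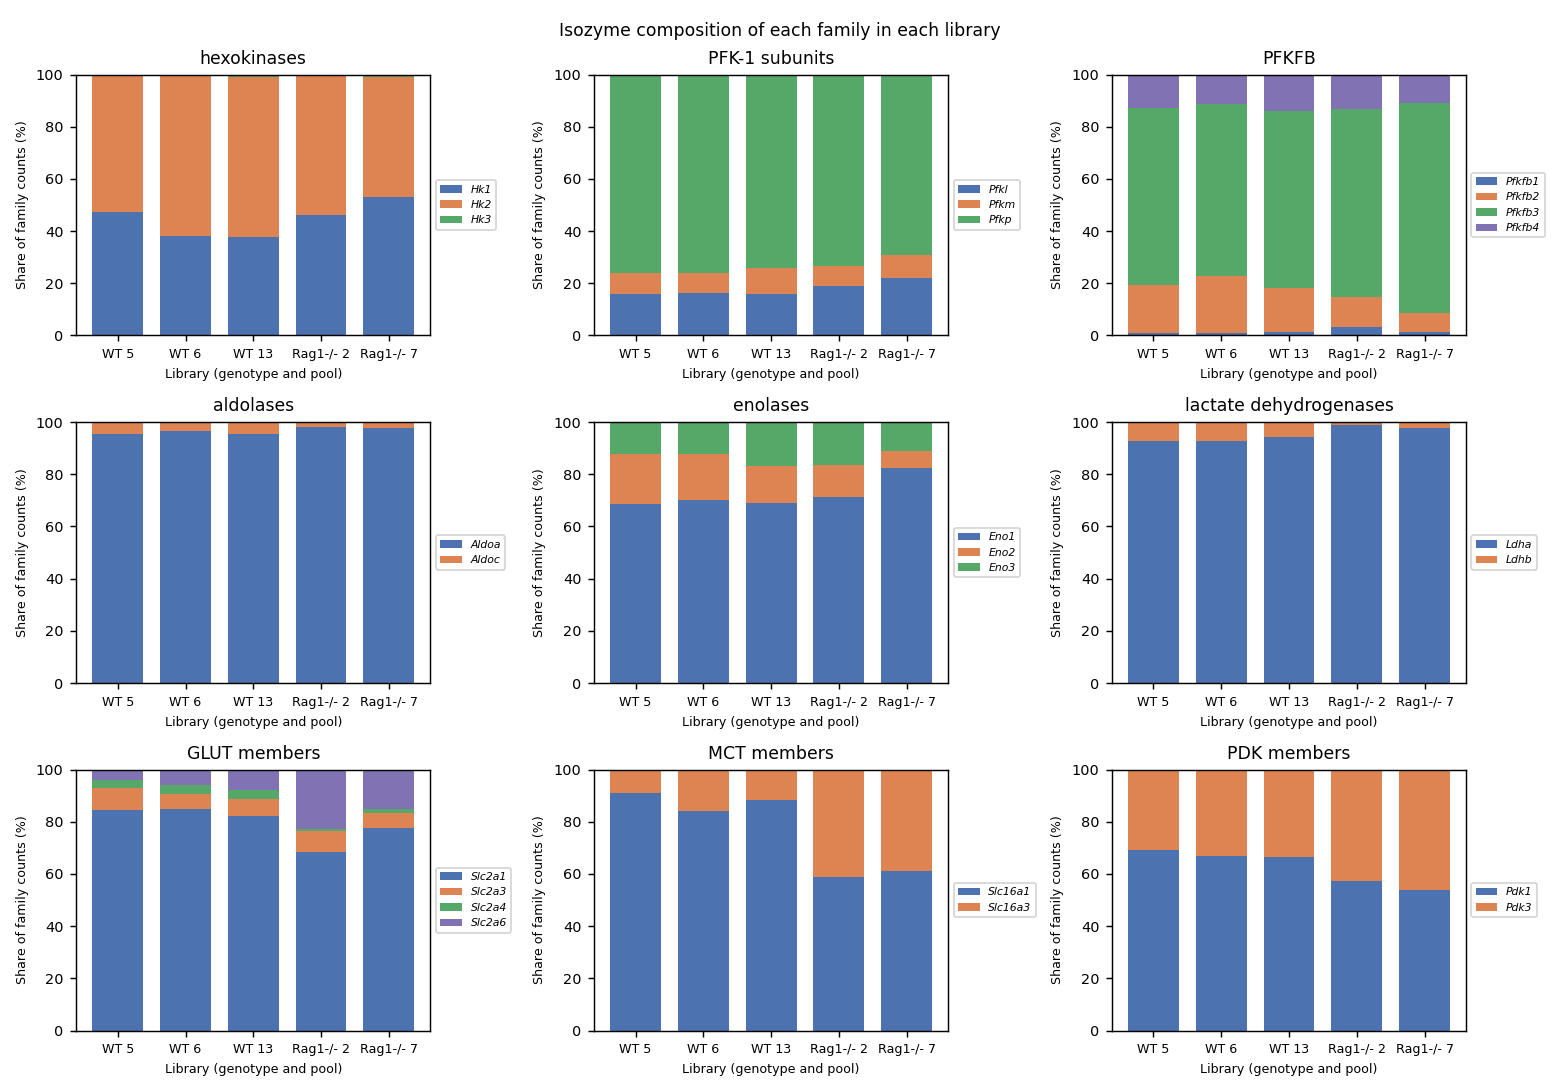
Share of each isozyme (%) in the summed counts of its family, with 1 panel per family and 1 stacked bar per library (WT pools 5, 6 and 13, Rag1-/- pools 2 and 7). *Slc16a3* took 9.12% to 15.7% of its family in WT and 38.99% and 41.2% in Rag1-/- libraries, whereas the hexokinase bars overlap between genotypes.

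The calls depended on the libraries kept and on the scaling. When any WT pool or Rag1-/- pool 2 was left out, no member was called by edgeR, and none of the genes in the whole table was, while 8, 7, 8 and 14 members had an unadjusted p under 0.05 without WT pool 5, 6 or 13 or Rag1-/- pool 2, against 19.2%, 20.2%, 20.9% and 25.8% of all genes. Without Rag1-/- pool 7, 2 members were called higher (*Gapdh* and *Slc2a6*) and 5 lower (*Ldhb*, *Pdk1*, *Pfkfb2*, *Slc16a1* and *Slc2a4*), against 4.07% and 7.98% of all genes. In this fit pool 2, the shallower library with the smaller keratinocyte sum, stood alone for its genotype and was assumed to vary like the WT pools. When libraries were scaled on the pan-leukocyte genes, the median of all genes tested moved from 0.02 to -2.22, 22 members were called lower and none higher, against 72.7% and 0.0842% of all genes. The median of the members then was -2.09. On that scale *Slc2a6* had a log2 fold change of 0.10, *Slc16a3* at -0.37, *Ldha* at -1.02 and *Gapdh* at -1.10, each above the median of all genes, and *Pfkfb2* below it at -3.54. Changes given here are therefore relative to the bulk of the genes in each library, and not per leukocyte.

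**Figure D4:**
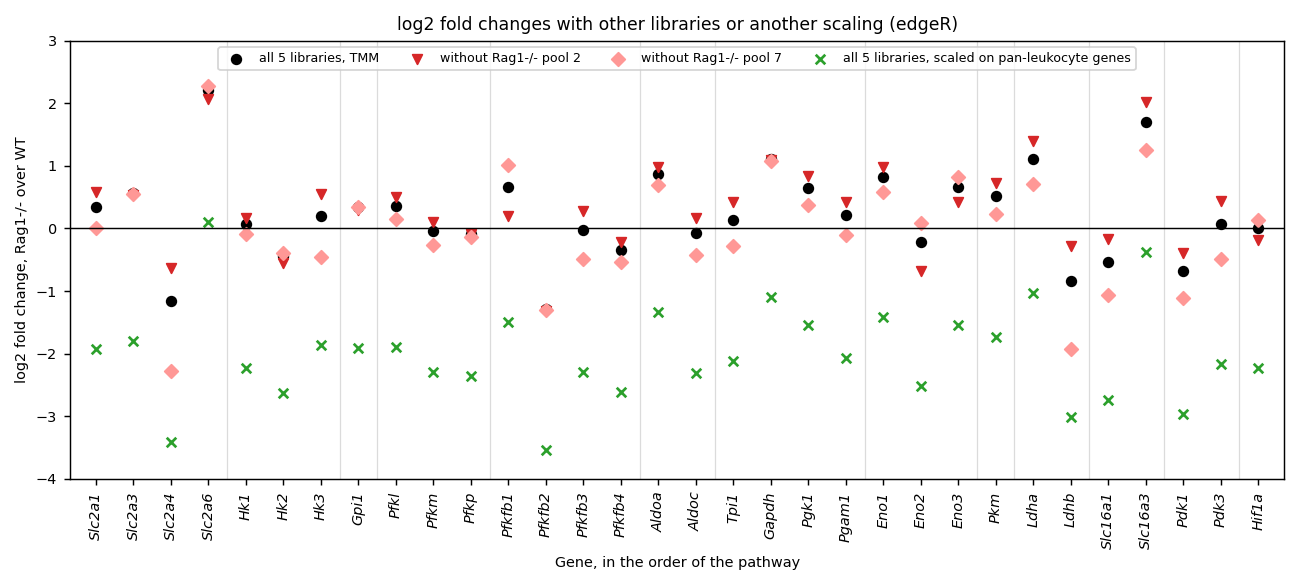
log2 fold change of each member, Rag1-/- over WT, from all 5 libraries with TMM scaling (black), without Rag1-/- pool 2 (red triangles), without Rag1-/- pool 7 (pink) and with all 5 libraries scaled on pan-leukocyte genes (green crosses). *Slc2a6*, *Slc16a3*, *Gapdh* and *Pfkfb2* keep their side of 0 whichever Rag1-/- pool is left out, *Slc2a4* and *Ldhb* move far between these fits, and all green crosses but that of *Slc2a6* lie below 0.

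Other genes that feed, branch from or regulate the pathway were read from a list of 103, of which 91 were tested. Of these, 4 were called higher and 4 lower, or 4.40% each way, against 3.57% and 2.16% of all genes, and their median log2 fold change was 0.10. *Emb*, the partner protein that carries monocarboxylate transporters to the membrane, was at 229, 449 and 429 CPM in WT and 1105 and 1214 CPM in Rag1-/- libraries (log2 fold change 1.69, SE 0.32, edgeR adjusted p = 0.036). The other partner, *Bsg*, overlapped at 199 to 231 CPM against 185 and 259 CPM. *Adpgk*, an ADP-dependent glucokinase, was at 39.02, 57.4 and 51.9 CPM against 124 and 104 CPM (log2 fold change 1.23, SE 0.22, edgeR adjusted p = 0.0329). Glycogenin, *Gyg*, which primes glycogen synthesis, had a mean of 11.7 ± 1.73 CPM (SD, n = 3) against 25.0 ± 2.27 CPM (SD, n = 2) and an adjusted p of 0.0391 (edgeR). The hypoxia-responsive growth factor gene *Vegfa* was at 78.7, 97.6 and 108 CPM against 266 and 153 CPM, with an adjusted p of 0.0492 (edgeR; log2 fold change 1.17) that was lost with the RLE scaling and with library size alone.

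Of the genes called lower, *Myc* was at 268, 237 and 229 CPM in WT and 107 and 117 CPM in Rag1-/- libraries (log2 fold change -1.10, SE 0.20, edgeR adjusted p = 0.0329). Both hexose transporters called lower lay outside the 32 members. *Slc2a5*, the fructose transporter, was at 17.3, 17.1 and 20.1 CPM against 5.71 and 6.94 CPM, and *Slc2a12* at 21.8, 23.0 and 27.4 CPM against 9.19 and 9.35 CPM (edgeR adjusted p = 0.0309 and 0.0308). The carbonic anhydrase *Car12*, counted among hypoxia-response genes, was at 83.7, 61.1 and 51.3 CPM against 19.8 and 23.3 CPM (log2 fold change -1.56, edgeR adjusted p = 0.0309). WT pool 5, with the highest keratinocyte sum, also had the highest *Car12* and *Myc* of the WT pools. *Slc2a5* and *Slc2a12* were highest in WT pool 13, which had the lowest keratinocyte sum of the WT pools. The part of keratinocytes in the levels of these 4 genes was not tested. The next genes by p were *Ero1l*, an oxidase of protein folding, at 103 ± 34.1 CPM against 254 ± 40.3 CPM (edgeR adjusted p = 0.051), and *Pdk4*, a kinase of pyruvate dehydrogenase, at 46.9 ± 4.73 CPM against 16.1 ± 8.90 CPM (edgeR adjusted p = 0.0604). Of the 16 hypoxia-response genes tested, 8 were positive and 8 negative, where 51.4% of all genes were positive. By edgeR 1 was called each way, or 6.25%, against 3.57% and 2.16% of all genes. Among 13 genes for pyruvate entry into mitochondria and 13 of the pentose phosphate and glycerol-phosphate branches, none was called by edgeR with all 5 libraries. Of these, 3 and 2, respectively, had an unadjusted p under 0.05 in that test, against 26.4% of all genes. With DESeq2, 6 of the other pathway genes were called higher and 6 lower, against 7.29% and 7.65% of the genes it tested. Called higher by DESeq2 but not by edgeR were *Ero1l* (DESeq2 adjusted p = 0.00264) and the transporter gene *Slc2a9* (DESeq2 log2 fold change 1.01, adjusted p = 0.0226). *Pdk4* and the pyruvate entry gene *Pcx* were called lower by DESeq2 (adjusted p = 0.00186 and 0.00383), against 7.65%.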

How the data were processed

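Gene counts of RNA-seq libraries from sorted dILC2s (TruSeq RNA v2, 50 bp single reads) were used as deposited. The authors aligned reads with STAR 2.5 to GRCm38, allowing 2 mismatches, and counted them per gene with featureCounts 1.5.0-p1. The labels name annotation release 103 and the methods release 84, and the processing notes list GRCm39 besides GRCm38. Gene coordinates in the table matched GRCm38. The kit does not mark strand. A table of normalised values was deposited too and was not used.

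The 32 genes and the other lists were chosen with earlier results of these data known. Total counts per library were 38796193, 39477243 and 32939428 (WT) and 8050562 and 38922750 (Rag1-/-). No row was dropped before library sizes were computed, and CPM is the count divided by this total and scaled to 1000000. The limit of 3 counts covers counting error only. Genes kept by filterByExpr (19011) were tested with the quasi-likelihood test of edgeR 4.0.16 (R 4.3.3, TMM, genotype alone), with Benjamini-Hochberg adjustment over all of them. Alternatives were DESeq2 1.42.0, RLE scaling, library size alone, scaling on 34 pan-leukocyte genes, no filter, adjusted p alone, and each library left out in turn. Where a symbol had several rows, the row with the most counts was taken.

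Named were all 32 members, the called genes of the wider list with the next ones by p up to 10, *Rag1*, near-identical copies and defining markers. Messenger RNA lengths and shared 50-base stretches came from GENCODE M21. On counts simulated from these libraries with 200 changed genes among 19011, edgeR recovered 128 with 12 false calls and DESeq2 161 with 68 false calls. The changed genes had a log2 fold change of 2 or 3 in size. Of the 93 genes at 2, edgeR recovered 43 and DESeq2 66. Of the 107 genes at 3, edgeR recovered 85 and DESeq2 95. Recovery of smaller fold changes, such as those of most members, was not tested.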

Additional observations from a re-analysis of the deposited data

How the results depend on the processing

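No paired analysis was possible because the WT and Rag1-/- pools share no replicate number. With each library left out in turn, edgeR called 0 to 2 members higher and 0 to 5 lower, and 0 to 2 and 0 to 11 of the other pathway genes, the highest counts being without Rag1-/- pool 7, where 4.07% and 7.98% of all genes were called. The 0 calls came from leaving out WT pool 5, 6 or 13 or Rag1-/- pool 2, when no gene of the table was called and 3521, 3735, 3874 and 5200 genes, respectively, had an unadjusted p under 0.05. Without the filter 7 of the 100 other pathway genes then tested were called lower, against 4.98% of all genes. With scaling on pan-leukocyte genes 0 members were called higher and 22 lower, and 0 and 71 of the 91 other pathway genes. On that scale 72.7% of all genes were called lower. On that leukocyte scale the log2 fold change turned negative for *Slc2a1* (-1.92), *Slc2a3* (-1.79), *Hk1* (-2.22), *Hk3* (-1.85), *Gpi1* (-1.91), *Pfkl* (-1.89), *Pfkfb1* (-1.50), *Aldoa* (-1.34), *Tpi1* (-2.12), *Gapdh* (-1.10), *Pgk1* (-1.55), *Pgam1* (-2.06), *Eno1* (-1.42), *Eno3* (-1.54), *Pkm* (-1.74), *Ldha* (-1.02), *Slc16a3* (-0.37), *Pdk3* (-2.17), *Hif1a* (-2.22), *Adpgk* (-0.92), *Emb* (-0.38), *Gyg* (-1.04), *Vegfa* (-1.01) and *Ero1l* (-0.75), where the median of all genes was -2.22. *Hif1a*, at 0.012, was also negative with RLE scaling (-0.017), library size alone (-0.014), no filter (-0.067) and DESeq2 (-0.031). Leaving out a library gave both signs for *Hk1* (-0.0801 to 0.17), *Hk3* (-0.45 to 0.58), *Pfkm* (-0.27 to 0.11), *Pfkfb3* (-0.48 to 0.28), *Aldoc* (-0.43 to 0.16), *Tpi1* (-0.28 to 0.42), *Pgam1* (-0.11 to 0.42), *Eno2* (-0.67 to 0.0881), *Pdk3* (-0.48 to 0.43) and *Hif1a* (-0.18 to 0.13). None of these was called. The differences in isozyme share changed sign, without a library, for *Hk3* (-0.082 to 0.38 percentage points), *Pfkm* (-1.01 to 0.332), *Pfkfb4* (-1.87 to 0.404), *Eno3* (-2.62 to 2.75) and *Slc2a3* (-0.693 to 1.31), and, with counts per length, for *Eno3* (-0.26) and *Slc2a3* (-0.0901). The other isozyme shares kept their direction under all alternatives run. In all, 308 of the log2 fold changes recomputed kept their direction and side of the threshold, 54 lost and 24 gained the call, and 43 reversed; beyond the leukocyte scale and the libraries left out, the cause was not tested. With 8050562 counts, Rag1-/- pool 2 limits the genes of low level, such as *Slc2a4* with its 12 reads.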
